A study of Rattus norvegicus with 12 samples.

Results

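Middle age was set apart from both ends of the age range by comparing the mean of the 12-month rats with the mean of the 3-month and 24-month group means, in RNA of the rostral ventrolateral medulla (RVLM). The difference between them is called the midlife departure here: it is 0 for a gene that moves by equal steps from 3 to 12 to 24 months, above 0 where the 12-month mean is higher than the middle of the ends and below 0 where it is lower. A peak or dip at 12 months gives such a value, and so does a step that is mostly complete by 12 months or mostly still to come. It uses all 9 animals and all 12 arrays of the study, and it was computed for 25454 items, 14120 of them with a gene name. The animals were male F344 rats, an inbred laboratory strain, kept under the same conditions at all ages and killed under isoflurane. There were 3 young rats of 3 months (group weight 301 g), 3 middle-aged rats of 12 months (423 g) and 3 aged rats of 24 months (413 g). Tissue was taken as micropunches of frozen brain, so each sample is a mixture of all cells in a small column of brainstem. Replicate 3 of each age was read on 2 arrays, which were averaged, and n is 3 animals per age throughout. The arrays sat on 3 slides of which only slide 3 held all 3 ages, with 1 animal of each.

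The RVLM holds the neurons that drive the sympathetic nerves to heart and blood vessels, many of which make adrenaline and use glutamate. Microglial and complement genes are known to rise in the ageing brain. Genes of the stress hormones, of the daily clock and of neuronal activity follow an animal's state on the day as well as its age. Genes of RVLM neurons were measured: the noradrenaline-synthesis enzymes Th and Dbh and the vesicular glutamate transporter Slc17a6 were well above background on every array. These 3 genes were picked as a check of the tissue after their values were seen.

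Each array had 73.5% to 77.1% of its spots well above background and 0 saturated spots, and both arrays of one replicate 3 differed by a median of 0.0564 to 0.0614 log2 units. On the second principal component (21.7% of the variance) 1 animal of each age stood apart, namely replicate 2 of the young and replicate 3 of the middle-aged and of the aged, at 15.7 to 27.4, against −18.1 to 3.23 in the others. The main counts are therefore also given without these 3 animals. The labels call the replicates biological, and the design text gives 3 rats per age.

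Among named genes the smallest p of a departure belonged to a peak at Zbtb16, which encodes a zinc finger transcription factor (also called Plzf) and is known as a gene induced by glucocorticoids. The array holds a pair of probes to it, both shown here because the result turns on them, as deposited with the array and read 5′ to 3′, with no part set in capitals.
Zbtb16, probe with the brighter signal, chr8:51953559-51953618: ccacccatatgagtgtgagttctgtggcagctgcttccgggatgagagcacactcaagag
Zbtb16, probe with the dimmer signal, chr8:52110317-52110376: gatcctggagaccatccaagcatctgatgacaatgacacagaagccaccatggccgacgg
Both lie on the minus strand, 156758 bases apart, at the positions the array files give on the rn3 build of the rat genome. On the brighter probe the log2 signal relative to the array's 75th percentile was −3.42, −2.78 and −3.58 in the 3-month animals, −1.40, −1.26 and −1.24 in the 12-month animals, and −2.70, −2.96 and −3.36 in the 24-month animals. The 12-month animals lay above the 6 others by a wide gap, and they differed less among themselves (SD 0.09) than the young (SD 0.42) or the aged (SD 0.33). With 1 unit standing for a doubling, the departure was 1.83 ± 0.19 (log2, limma standard error; adjusted p = 0.0962 by limma), which did not pass the threshold of 0.05 after Benjamini-Hochberg adjustment over all items. At 12 months the signal was 3.88-fold that at 3 months, a rise that passed (adjusted p = 0.0243 by limma), and 3.27-fold that at 24 months, which did not pass (adjusted p = 0.0795 by limma). The 24-month and 3-month animals differed by 0.25 (adjusted p = 0.64 by limma).

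The 4 items with the smallest departure p of all 25454 were Zbtb16 and 3 probes with no gene name, which were picked out after their values were seen, and all 4 lay on chromosome 8 within 8004 bases of each other. The unnamed probes are at chr8:51945615-51945674, chr8:51945948-51946007 and chr8:51948177-51948236 on rn3, 5382 to 7944 bases from the brighter Zbtb16 probe. The second of them is listed on the opposite strand. The array files tie them to expressed sequence tags and to an assembled transcript cluster, not to Zbtb16 itself. Their departures were 1.55 ± 0.18, 1.58 ± 0.19 and 1.70 ± 0.16 (adjusted p = 0.119, 0.119 and 0.0962 by limma), and all 3 rose from 3 to 12 months by 1.81, 1.87 and 1.90 (adjusted p = 0.0243, 0.0243 and 0.0147 by limma). In each of them the 3 animals of 12 months lay above the 6 others. On the dimmer Zbtb16 probe the values were −4.81, −4.81 and −4.94 at 3 months, −4.37, −3.43 and −4.05 at 12 months and −4.75, −5.13 and −4.26 at 24 months. There the ages overlapped, because 1 aged animal lay above the lowest 12-month animal, and the departure was 0.83, which was not tested since 1 probe per gene entered the fit. These probes share the same RNA samples, so they repeat the measurement and not the animals.

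In neighbouring genes the ages overlapped. Nnmt, a methyltransferase of nicotinamide 62914 bases from the brighter probe, stood at −0.35, 0.73 and −0.59, then 0.08, 0.39 and 0.89, then −0.34, 0.28 and 0.59 (departure 0.40 ± 0.33, adjusted p = 0.927 by limma). The serotonin receptor subunit Htr3a, 228011 bases away on the other side, ran from −2.13 to −1.91 at 3 months, −1.96 to −1.15 at 12 months and −2.17 to −1.12 at 24 months (departure 0.45 ± 0.25, adjusted p = 0.918 by limma). On slide 3 alone, with 1 animal per age, the departure of the brighter Zbtb16 probe was 2.24. On slide 1 the 12-month animal stood 1.83 above the 3-month animals, and on slide 2 the 12-month animals stood 1.59 above the 24-month animals. With slide as a block the departure was 1.83 and passed (adjusted p = 0.0246 by limma). Over all alternatives the adjusted p of Zbtb16 ran from 0.0046 to 0.517, and it passed in 5 of 24: the slide block, the 12 arrays with the animal as a block, normexp background correction, a variance trend with robust estimation, and the fit without young replicate 2 (adjusted p = 0.00925 by limma). Without the 3 animals that stood apart it was 0.0596.

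**Figure D1:**
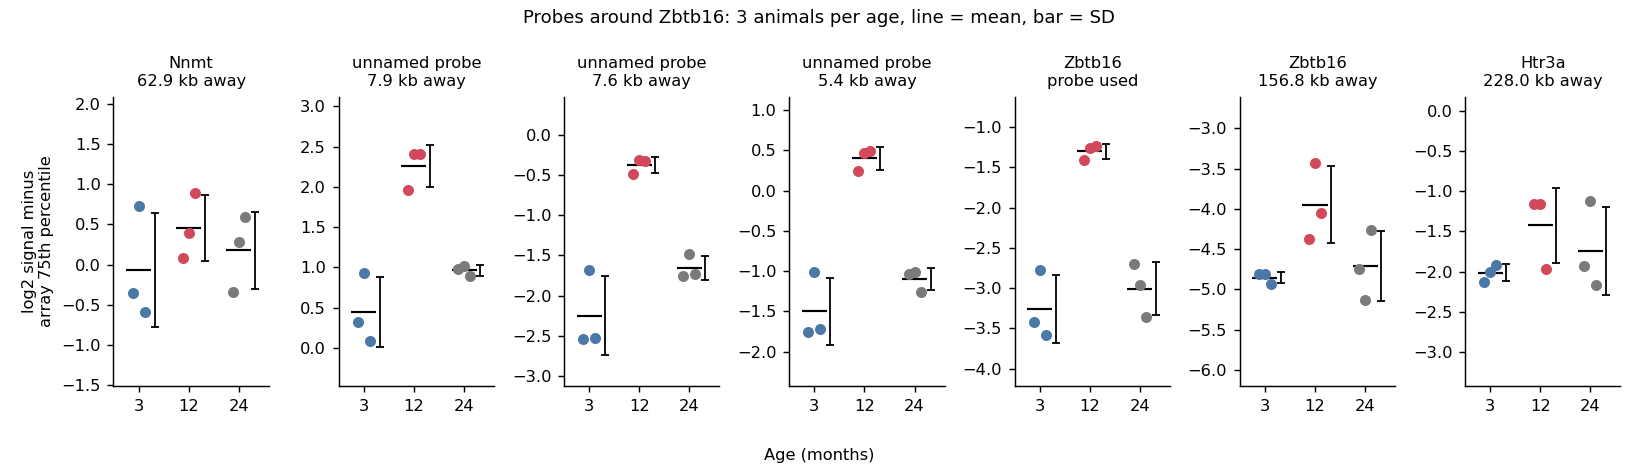
Log2 signal minus the array's 75th percentile (y) by age in months (x) for the 7 detected probes of the Zbtb16 neighbourhood, with 1 dot per animal, a line at the mean and a bar of 1 SD. The brighter Zbtb16 probe and the 3 unnamed probes within 8004 bases show 3 animals of 12 months above the 6 others, while the ages overlap in the probes of Nnmt and Htr3a.

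Across the transcriptome no departure passed. By limma 0 of 25454 items (0%) had an adjusted p under 0.05, 6 had one under 0.2, and 1350 items (5.3%) had an unadjusted p under 0.05. That share is close to the 5% set by the threshold itself. In 24 other fits between 0 and 6 items passed. Of the 1350 items 408 (1.6% of those tested) were higher at 12 months and 942 (3.7%) lower. This split rests on the scaling, since with each array's median subtracted it was 688 higher and 651 lower, and without the 3 animals that stood apart it was 645 and 792, with 0 passing. Most departures were small: 98.2% of departures lay within 0.5 log2 units of 0, the median was −0.01, and 16 items lay above 1 and 13 below −1. The median standard error of a departure was 0.0978, against 0.113 for the difference between 24 and 3 months, which shares all 6 of its animals with the departure. That difference passed for 513 items (2.02%), with 382 higher and 131 lower at 24 months.

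A stricter reading asks for a gene that differs at 12 months from each end in the same direction. By limma 0 items did so at an adjusted p under 0.05 for both differences, against 67 items higher and 174 lower with both unadjusted p under 0.05. In the other fits 0 to 5 items did so. The difference between 12 and 3 months passed for 48 items (0.189%), 38 higher and 10 lower at 12 months, and that between 12 and 24 months passed for 1 item (0.00393%). At an unadjusted p under 0.05 the order was the other way, with 1617 and 2737 items. The 1 item was Pou3f1, a transcription factor of neurons and myelinating cells, which climbed through all ages: −3.87, −4.15 and −3.90 at 3 months, −3.30, −3.20 and −3.01 at 12 months, and −1.94, −1.85 and −1.91 at 24 months. It stood at −1.27 ± 0.10 log2 units at 12 months relative to 24 months (adjusted p = 0.0242 by limma), and its departure was −0.23 ± 0.09.

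In 190 items (0.746%) all 3 animals of 12 months lay above the 6 others, and in 344 (1.35%) all 3 lay below them, 103 and 112 of these with a gene name that is not a predicted locus. The genes named next are the 15 in each direction with the smallest unadjusted p among those, and none of the 30 passed the adjusted threshold for the departure by limma. Since they were taken for their separation, that they do not overlap is part of the choice.

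The peaks after Zbtb16 are given one by one, as single genes. Edn1, the precursor of the vessel-constricting peptide endothelin-1 (chr17:28306864-28306923), stood at −4.35, −4.44 and −4.37 at 3 months, −3.94, −4.14 and −3.62 at 12 months and −4.32, −4.36 and −4.75 at 24 months. The young and aged animals overlapped and the 12-month animals lay above both, with a departure of 0.53 ± 0.13 (adjusted p = 0.858 by limma). Bok, a pro-apoptotic member of the BCL-2 family (chr9:93175598-93175657), was at −1.58, −1.42 and −1.50, then −1.32, −0.81 and −0.92, then −1.61, −1.58 and −1.84, a departure of 0.57 ± 0.12 (adjusted p = 0.781). One 12-month animal of the 3 lay close to the young. S1pr4, a sphingosine-1-phosphate receptor of blood cells, departed by 0.67 ± 0.19, but 3 of 4 arrays at each end were well above background. Its folds were 1.57 over 3 months and 1.60 over 24 months. For dim groups a floor was also used, the lowest signal well above background on each array. In S1pr4, B3gnt8, Nup62cl, Defa24 and Pdzph1 this floor raised no value, so their folds are plain ratios of group means, not lower limits. "At least" below refers to this floor, and not to the spread between animals.

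Sncg, a synuclein of neurons and their axons (chr16:10026222-10026281), was among the abundant peaks, at 3.42, 3.72 and 3.31 in the young, 3.72, 3.96 and 3.97 at 12 months and 3.21, 3.49 and 3.40 in the aged. The lowest 12-month animal and the highest young animal were nearly level, and the departure was 0.46 ± 0.11 (adjusted p = 0.856 by limma). B3gnt8, a glycosyltransferase that extends sugar chains, departed by 0.81 ± 0.19, with values of −4.44, −4.63 and −5.37 at 12 months. Its 12-month replicate 3 lay near the aged animals, which were at −5.47, −5.47 and −5.51. It was well above background on 3 of 4 young arrays, and the fold over 3 months was 1.94. The other peaks departed by less than 0.6: the channel-like membrane protein Tmc4 (0.36), the desmosome plaque protein Pkp2 (0.20), the phospholipid flippase Atp10a (0.32), Tubgcp4 of the microtubule-nucleating complex (0.34), Prr5 of the mTORC2 kinase complex (0.33), the heat shock transcription factor Hsf4 (0.22), and Lrrc63, Nup62cl and Tmem74b (0.33, 0.56 and 0.19). On a second, dimmer probe of Pkp2 the departure was 0.09 and the ages overlapped. Nup62cl was well above background on 3 of 4 young and 2 of 4 aged arrays, with folds of 1.49 and 1.47. S1pr4 and Nup62cl entered the fit only through the 12-month arrays, the group in which they are high.

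The dips are likewise single genes, and the myelin gene Opalin and the red cell gene Slc4a1 are described with their lists. Defa24, an alpha-defensin peptide of host defence (chr16:75031824-75032498), was at −5.08, −4.80 and −4.90 at 3 months, −6.15, −6.24 and −5.79 at 12 months and −5.53, −5.45 and −5.30 at 24 months. It was well above background on 2 of 4 arrays of 12 months. Its fall from 3 months (adjusted p = 0.0243 by limma) was 2.20-fold, and its departure was −0.89 ± 0.11 (adjusted p = 0.155 by limma). Bmf, a pro-apoptotic protein of the BCL-2 family (chr3:104863084-104863143), was at −4.56, −4.40 and −4.16, then −5.24, −4.94 and −4.79, then −4.38, −4.40 and −4.62, a departure of −0.57 ± 0.13 (adjusted p = 0.781). Bok and Bmf lay on opposite sides at 12 months.

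Gsn, which encodes the actin-severing protein gelsolin and is abundant in oligodendrocytes (chr3:14282619-14282678), was at 4.50, 4.29 and 4.39 in the young, 3.97, 3.98 and 4.13 at 12 months and 4.27, 4.32 and 4.34 in the aged. Its departure was −0.32 ± 0.07 (adjusted p = 0.781 by limma). Gpd1, the cytosolic glycerol-3-phosphate dehydrogenase of oligodendrocytes and fat cells, was at −0.31, −0.21 and 0.37, then −0.71, −0.66 and −1.17, then −0.09, −0.48 and 0.08, a departure of −0.74 ± 0.19 (adjusted p = 0.859 by limma). One young animal stood above the rest, and 1 middle-aged animal below the rest. Alox15, a lipoxygenase of fatty acids, departed by −0.64 ± 0.16, the kinetochore gene Nuf2 by −0.38 ± 0.08, the transcriptional coactivator Eya4 by −0.34 ± 0.09, the ubiquitin ligase Mkrn3 by −0.38 ± 0.08 and the junction-associated Micall2 by −0.29 ± 0.06. Or7g30, an olfactory receptor gene, departed by −0.47, Mbip by −0.35 and Mvb12b, a part of the endosomal sorting machinery, by −0.35. Pdzph1 was well above background on 0 of 4 arrays at 12 months, 2 of 4 at 3 months and 4 of 4 at 24 months. It entered the fit only through the 24-month arrays, where it is higher than at 12 months. Relative to 12 months its signal was 2.30-fold higher at 3 months and 1.86-fold higher at 24 months.

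**Figure D2:**
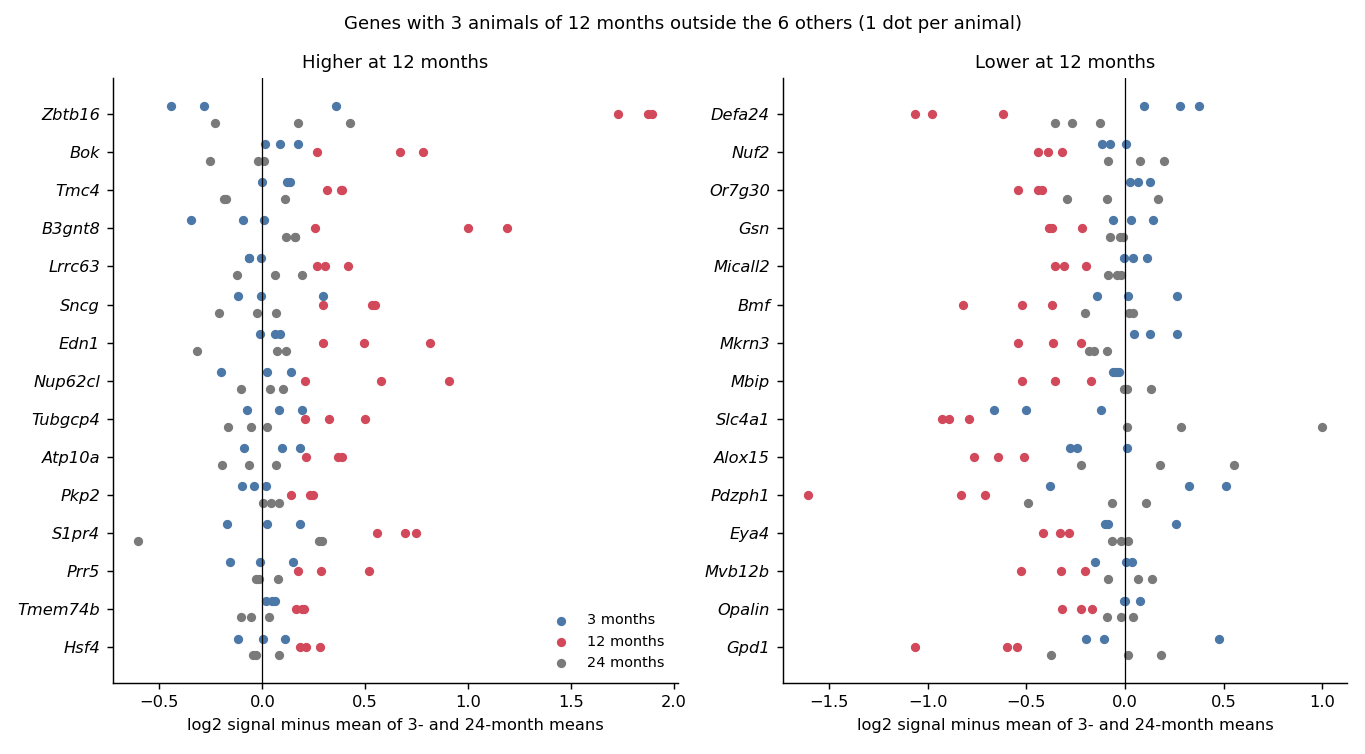
Log2 signal of each animal minus the mean of the 3-month and 24-month group means (x) for the 15 genes higher and the 15 genes lower at 12 months (y), coloured by age. The dots of 12 months stand outside the other 6 in every gene, by a wide gap in Zbtb16 and by a narrow one in genes such as Sncg and Nup62cl.

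Gene lists of pathways and cell types, 22 of 49 in number, are plotted by animal, and most are described by their counts and medians, beside the share of 5.3% of all items with an unadjusted p under 0.05 and the median departure of −0.01 over all items. No member of these lists passed for the departure by limma, and most counts at the unadjusted threshold move when 1 animal is left out. Glucocorticoids are adrenal hormones of stress and of the active phase of the day, and their receptor switches on a well-known set of genes. Of 24 tested genes of that set 2 had an unadjusted p under 0.05 and were higher, and 7 were lower (37.5%), and the median departure was −0.22. Zbtb16 and Fkbp5 were the higher ones. The count of lower genes was 4 without middle-aged replicate 2, and 3 without the 3 animals that stood apart. The median of the list, relative to the mean of the end groups, was −0.15 to −0.32 in the 12-month animals and −0.12 to 0.20 in the 6 others. Over every alternative on the log2 scale this median stayed between −0.27 and −0.19.

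Within that list the genes parted. Besides Zbtb16, the gene Fkbp5, which encodes a co-chaperone of the glucocorticoid receptor and was named after its values were seen, had a departure of 0.41 ± 0.13 (adjusted p = 0.906 by limma). Its values were 1.05, 1.30 and 0.98 at 3 months, 1.71, 2.05 and 1.75 at 12 months and 1.48, 1.76 and 2.00 at 24 months. The aged animals overlapped with the middle-aged and only the young stood apart, so its shape was a step more than a peak. Sgk1, a kinase induced by these hormones (chr1:23504663-23504722), was at 2.03, 3.16 and 2.80, then 2.27, 1.83 and 1.42, then 2.67, 2.84 and 3.46, a departure of −0.98 ± 0.29 (adjusted p = 0.877 by limma), and 1 young animal lay among the 12-month animals. Nfkbia, the inhibitor of NF-kappaB (chr6:75733564-75733623), was at 0.83, 0.75 and 1.32, then 0.13, 0.26 and 0.01, then 0.89, 0.26 and 1.49 (−0.80 ± 0.24, adjusted p = 0.888 by limma). One aged animal was level with the highest 12-month animal. Mt1, a metal-binding metallothionein, departed by −0.51 ± 0.16 and the transcription factor Cebpd, named after its values were seen, by −0.62 ± 0.20. A second, dimmer probe of Nfkbia departed by −0.34, with age means of −2.09, −2.67 and −2.56. A second, dimmer probe of Mt1 departed by −0.57, with age means of −4.05, −5.13 and −5.05. On both of these probes the 24-month mean lay near the 12-month mean, a step more than a dip.

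The sequence before the start of Nfkbia and of Mt1 is shown because both belong to the lower members of this list. Each is the 250 bases before the gene start in RefSeq's annotation of build GRCr8, at chr6:78597073-78597322 and chr19:10832976-10833225 on the minus strand. Capitals mark matches on either strand to one of the motifs searched.
Nfkbia: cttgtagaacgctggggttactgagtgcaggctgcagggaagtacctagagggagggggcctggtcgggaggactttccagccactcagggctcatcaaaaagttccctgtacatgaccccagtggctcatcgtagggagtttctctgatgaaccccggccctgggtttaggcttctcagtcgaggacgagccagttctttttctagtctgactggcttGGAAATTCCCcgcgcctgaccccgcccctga
Mt1: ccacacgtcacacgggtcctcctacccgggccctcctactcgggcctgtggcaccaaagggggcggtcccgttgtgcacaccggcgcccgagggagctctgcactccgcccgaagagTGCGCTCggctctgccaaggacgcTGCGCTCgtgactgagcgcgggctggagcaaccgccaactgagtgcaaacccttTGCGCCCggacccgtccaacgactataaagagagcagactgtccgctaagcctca
Nfkbia holds 1 match to the NF-kappaB motif (a reduced form of its consensus), found in 0.314% of 33469 windows of that length, and Mt1 holds 3 to the core of the metal response element, TGCGCNC, found in 11.8%. Neither holds the paired half-site of the glucocorticoid receptor, ACANNNTGT, which is in 5.81% of windows and in 2 of 25 windows of the list. Also searched were the E-box CACGTG (5.59%), the cyclic AMP response element TGACGTCA (1.59%), the AP-1 site TGANTCA (6.34%) and the GATA motif AGATAA (10.3%), with no match in either gene.

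The circadian clock list and the immediate early genes, which neurons switch on within minutes of activity, share some of these genes. Of 21 tested clock genes 0 were higher and 4 lower at an unadjusted p under 0.05 (19.0%), with a median departure of −0.07, and the list medians of the 12-month animals, −0.09 to −0.08, nearly met those of the others, −0.08 to 0.15. The lower genes were 2 without middle-aged replicate 1, and 1 without middle-aged replicate 3 or without the 3 animals that stood apart. Per1, a core repressor of the clock, was at −2.29, −1.93 and −2.11, then −2.14, −2.42 and −2.57, then −2.08, −1.93 and −1.88, and 1 young animal overlapped with the 12-month animals (−0.34 ± 0.11). Nfil3, a repressor of clock output genes, departed by −0.50 ± 0.18 and Nr1d2, a nuclear receptor of the clock, by −0.20 ± 0.09. Of 30 immediate early genes 2 were lower and 0 higher (6.67%), with 0 lower without middle-aged replicate 2 and 6 lower without young replicate 2. Their list median was 0.66 in young replicate 1 against −0.30 to 0.12 in the 8 others, and it was −0.13 with all animals and −0.0042 without that animal. Sik1, a kinase induced by activity, was 1.42 in that animal and −0.52 to 0.82 in the others. The hour of decapitation is not in the sources used here, and its part in these genes was not tested.

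Myelin genes stood mostly below the mean of the ends at 12 months. Of 23 tested genes of oligodendrocytes, the cells that make myelin, 7 were lower and 1 higher at an unadjusted p under 0.05 (34.8%), with a list median of −0.14. The lower genes were 4 without young replicate 3, 3 without the 3 animals that stood apart, and 10 with the mean of all kept probes of a gene. The list median of single animals was 0.09 to 0.14 at 3 months, −0.16 to −0.07 at 12 months and −0.16 to −0.05 at 24 months, so the middle-aged overlapped with the aged. In bulk tissue fewer cells of a type and less RNA per cell cannot be told apart. Mal, a proteolipid of myelin rafts, was at 3.18, 3.20 and 3.17 in the young, 2.60, 2.67 and 2.48 at 12 months and 2.64, 2.65 and 2.69 in the aged, and fell from 3 to 12 months by 0.60 ± 0.07 (adjusted p = 0.0243 by limma). Ugt8, the enzyme that makes the myelin lipid galactosylceramide, fell from 3 to 12 months by 0.82 ± 0.12 (adjusted p = 0.0468 by limma). In both the aged animals overlapped with the middle-aged. Opalin, a membrane protein of mature oligodendrocytes, was lowest at 12 months itself: 3.81, 3.81 and 3.88, then 3.58, 3.64 and 3.49, then 3.72, 3.79 and 3.85 (−0.24 ± 0.06, adjusted p = 0.859 by limma), and its second probe departed by −0.26. The 1 higher gene, Qdpr, which regenerates the cofactor of tyrosine hydroxylase, rose from 3 to 12 months by 0.52 ± 0.08 (adjusted p = 0.0482 by limma).

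Of 10 tested genes of red blood cells 5 were lower and 0 higher at an unadjusted p under 0.05 (50%), with a median of −0.26. The lower genes were 3 without any 1 of the middle-aged animals, aged replicate 1 or aged replicate 3, and 2 without the 3 animals that stood apart. Slc4a1, the anion exchanger of the red cell membrane, was at −3.62, −4.01 and −4.17, then −4.43, −4.29 and −4.40, then −2.50, −3.22 and −3.49 (−0.87 ± 0.21, adjusted p = 0.811 by limma). Hbb-b1, a beta globin, was at 6.41, 5.91 and 6.17, then 6.07, 6.02 and 5.97, then 7.06, 6.56 and 7.03, so the middle-aged lay among the young and the aged stood above both (−0.50 ± 0.14). The heme-synthesis enzyme Alas2 and the globin Hbb had departures of −0.59 ± 0.23 and −0.60 ± 0.20, again with the middle-aged among the young. The amount of blood in the punches was not measured, and its part in these values was not tested.

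Genes of cholinergic motor neurons had the highest median departure of all 49 lists, 0.62, and 1 of 11 had an unadjusted p under 0.05 (9.09%), the acetylcholine-cleaving enzyme Ache (0.18 ± 0.07). Other probes of Ache departed by −0.15 and 0.002, and with the mean of all kept probes of a gene the count was 0. The list median of single animals ran from 0.04 to 1.08 at 12 months, from −0.80 to 0.53 at 3 months and from −0.18 to 0.75 at 24 months, and the ages overlapped. Slc18a3, the vesicular acetylcholine transporter, was at 3.14, 1.76 and 3.48 in the young, 3.95, 4.40 and 3.06 at 12 months and 2.72, 4.29 and 2.14 in the aged, and Chat, the enzyme that makes acetylcholine, departed by 0.62 ± 0.38 (−0.45 on slide 3 alone). The animals highest in Slc18a3 were middle-aged replicates 1 and 2 and aged replicate 2. The same 3 animals were the highest for the small heat shock protein Hspb1, at 2.77, 3.21 and 3.22 against 1.57 to 2.34 in the 6 others. Motor nuclei lie near the RVLM, and how much of them each punch took was not measured or tested. Without middle-aged replicate 2 the list median was 0.28, and without middle-aged replicate 3 it was 1.04.

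Among receptors for monoamines, acetylcholine and opioids 5 of 41 were higher and 0 lower at an unadjusted p under 0.05 (12.2%). Without middle-aged replicate 2 the count of higher genes was 0, and with normexp background correction it was 2. The list median of the 12-month animals ran from 0.064 to 0.129, narrowly above the −0.105 to 0.058 of the 6 others. Htr2a, a serotonin receptor that excites neurons, was at −3.13, −3.03 and −3.31, then −3.09, −2.92 and −2.98, then −3.73, −3.33 and −3.38 (0.32 ± 0.11), and a young and a middle-aged animal overlapped. The serotonin receptors Htr6 and Htr1d departed by 0.35 ± 0.11 and 0.37 ± 0.13, and Oprl1, the nociceptin receptor, by 0.17 ± 0.06. The remaining one was the nicotinic receptor subunit Chrna3 (0.92 ± 0.35), named because it completes the 5. Of 19 genes of neurofilaments and the axonal cytoskeleton 3 were higher (15.8%), and 1 without young replicate 1 or 3, without middle-aged replicate 2 or without the 3 animals that stood apart. They were the growth cone protein Dpysl5 (0.23 ± 0.08), the neuronal ubiquitin hydrolase Uchl1 (0.17 ± 0.07) and the neuronal tubulin Tubb3 (0.27 ± 0.11).

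Of 17 genes of catecholamine neurons 1 was higher and 0 lower (5.88%), and it was again Qdpr. Of 20 genes on the list of angiotensin and vasopressin signalling 2 were higher (10%). They were the vasopressin receptor Avpr1a (0.21 ± 0.09) and the endothelin precursor Edn1, which that list also holds and which is given above among the peaks. Of 39 genes of insulin and growth factor signalling 2 were higher (5.13%): Ngfr, the low-affinity receptor for nerve growth factor, at 0.50 ± 0.15, and the growth factor Nrg1 at 0.26 ± 0.09. Hox genes, which record position along the hindbrain, had a median of 0.15 with 0 of 16 past an unadjusted p of 0.05, and that median turned to −0.09 without middle-aged replicate 3. Of 30 heat shock genes 1 was higher (3.33%), the co-chaperone Chordc1 (0.15 ± 0.06). Other probes of Chordc1 departed by −0.03 and 0.13. The count of higher heat shock genes was 0 with slide as a block and 3 with each array's median subtracted.

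Of 18 astrocyte genes 3 were lower and 0 higher at an unadjusted p under 0.05 (16.7%). The lower genes were 0 without middle-aged replicate 2, and 1 without young replicate 1, without aged replicate 2 or with each array's median subtracted. The list median of the 12-month animals, −0.13 to −0.08, lay below that of the 6 others, −0.05 to 0.03. Gja1 and Gjb6, the connexins that join astrocytes in a network, departed by −0.28 ± 0.09 and −0.14 ± 0.06, and in both the 3 animals of 12 months lay below the 6 others. Sox9, an astrocyte transcription factor, departed by −0.29 ± 0.12. Of 39 genes of extracellular matrix 3 were lower (7.69%, and 1 without young replicate 3 or aged replicate 1), led by the laminin chain Lama4 (−0.42 ± 0.12), which 2 other probes gave as −0.49 and −0.22. Of 21 endothelial genes 1 was lower (4.76%), the growth factor receptor Kdr (−0.30 ± 0.12). Of 22 genes of meninges and fibroblasts 2 were lower (9.09%), with the proteoglycan Lum at −0.38 ± 0.09, and the list median was 0.68 in young replicate 1 against −0.34 to −0.04 in the 8 others.

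**Figure D3:**
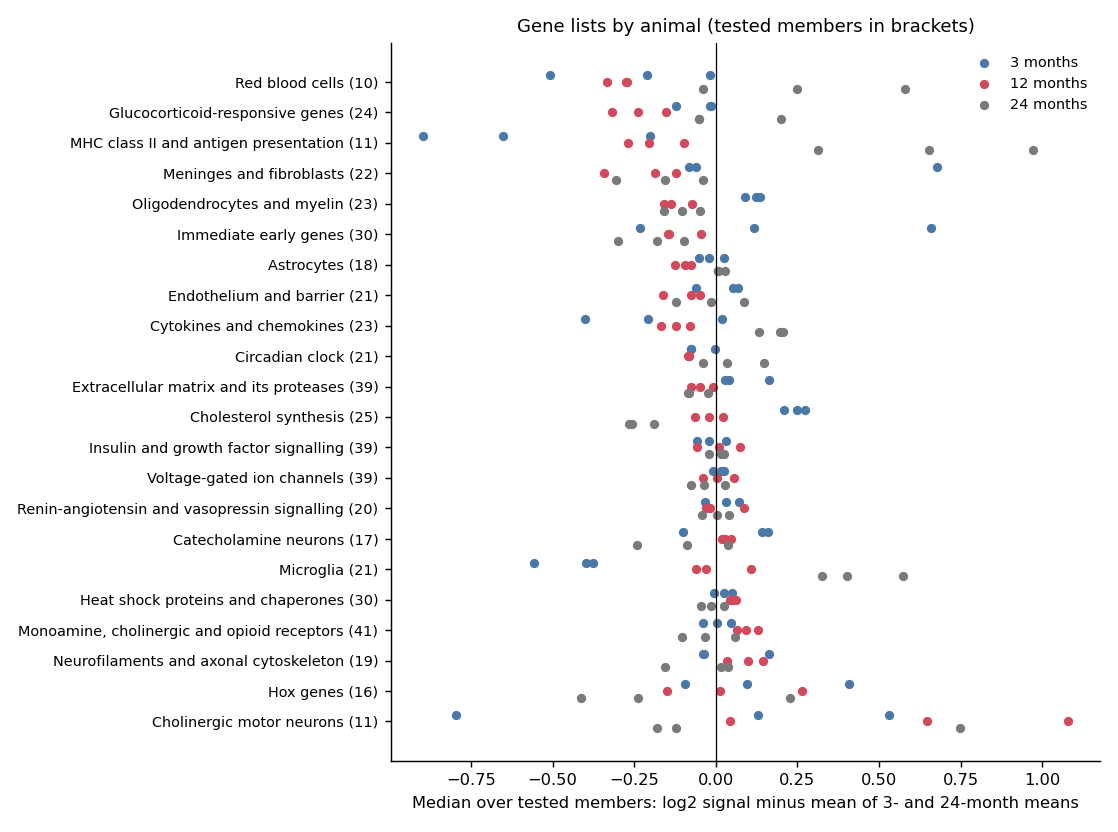
Median over the tested members of each of 22 gene lists (y), as log2 signal of an animal minus the mean of the 3-month and 24-month group means (x), with 1 dot per animal coloured by age. The 12-month animals lie narrowly below the 6 others for glucocorticoid-responsive, astrocyte and circadian clock genes. They lie narrowly above them for receptors of monoamines, acetylcholine and opioids. For cholinergic motor neurons they overlap with the 6 others, and animals of 1 age lie far apart.

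Most genes that differ between the ends of the age range lay between those ends at 12 months. Of the 513 items that passed for 24 against 3 months, 94.9% had a 12-month mean between the means of the ends, 19 lay before the 3-month mean and 7 past the 24-month mean. The median share of the difference covered by 12 months was 0.545 (interquartile range 0.393 to 0.66), with 0.527 for items that rose and 0.608 for items that fell. A share of 0.5 marks equal steps. Since 12 months is nearer to 3 than to 24 months, a straight line in months gives a share below 0.5. The shares use the same young and aged animals that chose the items and are a description without a test.

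Some genes had made most of their step by 12 months. The 10 genes given next were chosen after their values were seen, as those that passed for 24 against 3 months, lay between the ends at 12 months and had the smallest departure p, 5 in each direction; none passed for the departure. Gipr, the receptor of the gut hormone GIP (chr1:78593703-78593762), was at −2.43, −2.36 and −2.44 in the young, −0.05, −0.39 and −0.24 at 12 months and 0.32, 0.02 and −0.20 in the aged. It rose 4.54-fold from 3 to 12 months (2.18 ± 0.14, adjusted p = 0.00292 by limma), the aged overlapped with the middle-aged, and the departure was 0.95 ± 0.12 (adjusted p = 0.146 by limma). C3, which all routes of complement activation cleave, was at 1.51, 1.38 and 1.39, then 2.65, 2.93 and 2.95, then 3.19, 3.22 and 3.00, a rise of 1.42 ± 0.10 by 12 months (adjusted p = 0.00467 by limma) out of 1.72 in all. Birc7, an inhibitor of apoptosis, and Ass1, an enzyme of arginine synthesis, rose by 0.90 ± 0.08 and 0.60 ± 0.09 by 12 months (adjusted p = 0.0085 and 0.0494 by limma), out of 1.26 and 0.64 by 24 months, while Eva1c was 0.59 higher without passing (adjusted p = 0.0531 by limma).

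Early falls were those of Casr, the calcium-sensing receptor, and Pnlip, a lipase. Casr (chr11:66142002-66142060) was at −3.13, −3.10 and −2.90 in the young, −4.65, −4.46 and −4.37 at 12 months and −4.57, −4.48 and −4.88 in the aged, so that it fell by 1.45 ± 0.13 by 12 months (adjusted p = 0.0085 by limma) and the aged overlapped with the middle-aged. Pnlip fell by 0.67 ± 0.08 (adjusted p = 0.024 by limma). Igf2bp2, an RNA-binding protein of growth, fell by 1.27 ± 0.10 by 12 months (adjusted p = 0.00826 by limma) and by 1.90 by 24 months.

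Other genes lay near their 3-month level at 12 months. Dbp, an output transcription factor of the clock, was at 2.37, 2.32 and 2.40 in the young, 2.37, 2.32 and 2.47 at 12 months and 2.89, 2.95 and 2.84 in the aged. The young and middle-aged overlapped, and the aged stood 0.53 ± 0.07 above the young (adjusted p = 0.00753 by limma). The chemokine Ccl3, which draws leukocytes, was at −3.29, −3.87 and −4.35, then −3.61, −3.73 and −3.42, then −1.71, −1.72 and −1.46, with a departure of −0.85 ± 0.20 (adjusted p = 0.811 by limma). Ccl5, a chemokine that draws T cells, was at −4.16, −4.12 and −3.75, then −4.16, −4.19 and −4.11, then −2.60, −2.33 and −2.92, and its departure was −0.84 ± 0.14 (adjusted p = 0.439 by limma). Of 23 cytokines and chemokines 4 were lower and 0 higher at an unadjusted p under 0.05 (17.4%), and 2 were lower without middle-aged replicate 3 or with slide as a block.

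A late shape was also seen in single genes of MHC class II, the molecules that present antigen to T cells. Of 11 tested genes of MHC class II and antigen presentation 4 were lower and 1 higher at an unadjusted p under 0.05 (45.5%). The count of lower genes was 0 without young replicate 1, without middle-aged replicate 1 or 3, and with a straight line in months, and 1 without young replicate 2, middle-aged replicate 2, aged replicate 1 or the 3 animals that stood apart. RT1-Da, an alpha chain among these molecules, was at −2.03, −2.87 and −4.10, then −2.90, −3.02 and −3.01, then −0.17, −1.19 and −1.42 (−1.01 ± 0.42), and a second probe departed by −1.01. The young animals spread more widely (SD 1.04) than the gap between young and middle-aged means. The 1 higher gene was Cd86, a co-stimulator of T cells, which was well above background on 0 of 4 young, 3 of 4 middle-aged and 4 of 4 aged arrays. It entered the fit only through the aged arrays, where it is high, and its 12-month signal was at least 2.48-fold that at 3 months. Microglial genes were near the middle of the range at 12 months, with 0 of 21 past an unadjusted p of 0.05 and list medians of −0.06 to 0.11 at 12 months, −0.56 to −0.38 at 3 months and 0.32 to 0.57 at 24 months. With a straight line in months 2 of these genes were higher and 0 lower at that p. Of 25 genes of cholesterol synthesis 1 was higher (4%), Fdps, which makes farnesyl diphosphate, at 5.05, 4.98 and 5.02, then 4.94, 4.98 and 4.92, then 4.63, 4.59 and 4.61. Its young and middle-aged animals overlapped (0.13 ± 0.05). With a straight line in months 0 genes of cholesterol synthesis were higher and 3 lower.

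**Figure D4:**
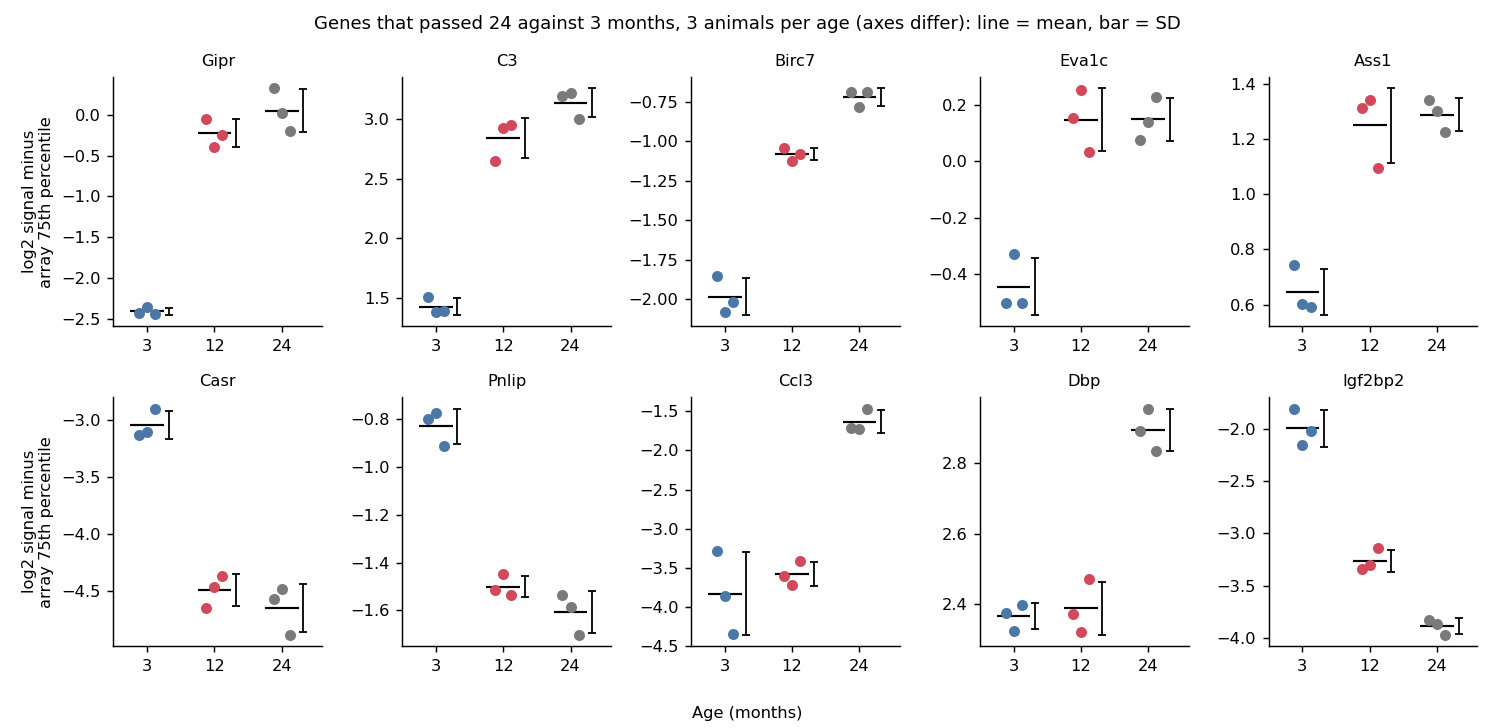
Log2 signal minus the array's 75th percentile (y, a different axis for each gene) by age in months (x), with 1 dot per animal, a line at the mean and a bar of 1 SD. Gipr, C3, Casr and Pnlip are near their 24-month level at 12 months, whereas Ccl3 and Dbp are near their 3-month level.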

How the data were processed

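Rat whole-genome oligonucleotide arrays (1 colour, Cy3) were read with Agilent Feature Extraction 9.5.1.1, per the submitters' processing notes. The values used are the processed signal intensity of each spot as deposited by the authors, already corrected for background per the file headers. The authors' deposited table of scores (mean 0 and SD 1 per array, log base not stated) served only as an alternative.

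Control and outlier spots were left out, log2 intensity minus the array's 75th percentile was taken, spots of a probe were averaged, and both arrays of a replicate 3 were averaged. Kept were 29805 of 41012 probes, those flagged well above background by the scanner software on all 4 arrays of some age, and the probe with the highest mean signal stood for a gene, giving 25454 items. Names came from the files' accessions (10735 probes by the main accession, 67 by another), their symbols (5563) or synonyms (3719) in RefSeq's rat gene table. For 3322 probes the file's name was kept and 17606 had none. Probe positions are those of the array files (rn3).

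limma 3.58.1 in R 4.3.3 fitted 3 age means, with two-sided tests and Benjamini-Hochberg adjustment over all items, and was tested on simulated data. The members and lists were chosen with earlier results of these data known. Named genes are up to 15 peaks and 15 dips by smallest p among separated genes, up to 4 members of each list, and those said to be added. Replicate numbers did not pair the samples. Alternatives covered scaling, background, probe filter, probe choice, slide, technical arrays, variance model and left-out animals. The number of arrays limits the precision. Some genes are not reported here.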

Additional observations from a re-analysis of the deposited data

How the results depend on the processing

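With the replicate number as a block 0 items passed for the departure, and the correlations of same-numbered samples, −0.41 to 0.37, gave no pairing. The count of items past the threshold was also 0 in 18 of the other 23 fits. It was 4 with normexp background correction, 2 with slide as a block, 6 with all 12 arrays and the animal as a block, and 5 with a variance trend and robust estimation. Leaving out 1 animal gave 0 to 4, the 4 without young replicate 2. Items beyond both ends numbered 2 with normexp, 5 with the 12 arrays, 2 with the trend, and 0 to 2 when 1 animal was left out, again without young replicate 2. The items called were Zbtb16, the 3 unnamed probes near it, Gipr (with the 12 arrays and with the trend) and 1 other unnamed probe (0.40, with the 12 arrays). Why these fits differ was not tested. The departure of Fdps turned to −0.013 with normexp. On slide 3 alone 80 of the 84 genes described above kept the sign of their departure. Cd86, Chat, Htr1d and Htr3a did not (−0.26, −0.45, −0.01 and −0.03). Some list members outside these 84 also turned, such as Hspa1a (from 0.31 to −0.18) and Vcan (from −0.20 to 0.02), while others kept their sign. The arrays of slide 3 are also part of the main fit, so the count of 80 is no separate check. For the peaks and dips the sign was largely set by choosing separated genes. Sizes moved both ways, from −0.47 to −0.02 in Or7g30 and from −0.98 to −1.72 in Sgk1. A line in months in place of equal steps, and leaving out the 3 animals that stood apart, were chosen after seeing the data, and 0 items passed in both. Genes near background, such as Pdzph1, Defa24 and Nup62cl, have folds that the floor left unchanged. These are plain ratios of dim signals and not lower limits.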
